A study of Mus musculus with 28 samples.

Results

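The cytosolic ribosomal protein genes were taken as every mouse gene whose symbol is Rpl or Rps followed by a digit, starts with Rplp, or is Rpsa, with pseudogene symbols ending in -ps and the Rps6k kinases left out. The rule found 92 of the 47643 gene rows, and 88 of them had at least 1 read. They comprised 43 genes of the large subunit, 31 of the small subunit, 3 of the stalk (Rplp0, Rplp1 and Rplp2) and 14 paralogues of these genes. The symbol rule also took in Rps19bp1, which encodes a binding partner of a ribosomal protein and not a ribosomal protein, with 55 reads. Fau, which encodes a ribosomal protein fused to a ubiquitin-like protein, fell outside the rule and is counted in a separate list.

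Cytosolic ribosomes make the proteins of the cell, and each holds 1 copy of nearly every ribosomal protein around a core of ribosomal RNA. The large subunit joins amino acids, the small subunit reads the messenger RNA, and the stalk proteins on the large subunit recruit elongation factors. Ribosomal protein messenger RNAs are abundant in most tissues, and in vertebrates most of them begin with a short run of pyrimidines (the terminal oligopyrimidine tract) through which their translation is tied to growth signals.

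The libraries were 3′ messenger RNA libraries of cells sorted from H2B-GFP mice, which carry a fusion of histone H2B and green fluorescent protein. Cells that divide dilute such a label, so the sort into GFP+ and GFP− cells addresses the retention of the label. Thyroid gland was sampled at 3, 6 and 9 months of age, with 4, 4 and 3 libraries in each fraction. Salivary gland was sampled at 9 months, with 3 libraries in each fraction. All 28 libraries came from H2B-GFP mice. The sources used here give neither the promoter that drives the fusion nor the strain or any labelling or chase schedule. They also do not say whether each library came from its own animal, so a p-value here reflects the spread between libraries, which may be technical.

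Reads in genes ranged from 507 to 209091 per library. In 6 libraries they lay between 507 and 5896: replicate 2 of thyroid GFP− at 6 months, replicate 1 of thyroid GFP− at 9 months, replicates 1 and 2 of thyroid GFP+ at 3 months, replicate 4 of thyroid GFP+ at 6 months and replicate 1 of salivary GFP+. The other 22 held at least 11795. Those 6 libraries together gave 454 of the 58144 reads of the ribosomal protein genes, and 3 to 56 members were seen in each, against 66 to 86 in the deeper thyroid libraries. A gene with 0 reads could still have been present at up to 3 reads, which was 14.3 CPM (the reads of a gene as a share of all reads in genes of that library, scaled to a common total) in the deepest library and 5917 CPM in the shallowest. In thyroid, Tg and other thyrocyte genes were found beside parathyroid and C cell genes, with Slc26a4 at 0 throughout, and in salivary gland Smr3a was at 0 among 7 salivary markers.

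The gene starts of the most-read members are shown first, because the pyrimidine tract is what these genes are known to share and the rule did not use it. A tract was searched as a C followed by at least 5 further C or T on the sense strand, starting within 10 bases of the annotated gene start. RefSeq promoter windows (GRCm38.p6) were found for 67 of the 92 genes, and 36 of their 79 windows (45.6%) held a tract, against 6302 of 32851 windows of all genes (19.2%). The tract was about equally common in windows of the large subunit (47.4%) and the small subunit (48.1%). Each line runs 5′ to 3′ from 35 bases before to 20 bases after the start, with the tract in capitals. The first 5 genes below hold a tract, and Rpl13 and Rpl37a hold none that starts within 10 bases of the start. The Rpl13 line does hold such a run farther upstream, outside that window.
Rps21: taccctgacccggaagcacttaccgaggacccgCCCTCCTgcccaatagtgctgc
Rps12: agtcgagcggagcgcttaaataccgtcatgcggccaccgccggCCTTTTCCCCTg
Rps9: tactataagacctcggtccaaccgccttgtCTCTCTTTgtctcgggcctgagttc
Rps24: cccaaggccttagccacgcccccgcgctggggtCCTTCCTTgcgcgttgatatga
Rps26: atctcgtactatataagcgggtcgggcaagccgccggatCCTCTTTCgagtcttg
Rpl13: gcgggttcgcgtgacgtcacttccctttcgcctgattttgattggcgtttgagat
Rpl37a: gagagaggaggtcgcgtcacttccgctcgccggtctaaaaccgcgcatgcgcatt
They lie at chr2:180257344-180257398 (plus strand, Rps21), chr10:23787190-23787244 (minus, Rps12), chr7:3704006-3704060 (plus, Rps9), chr14:24490643-24490697 (plus, Rps24), chr10:128626487-128626541 (minus, Rps26), chr8:123102315-123102369 (plus, Rpl13) and chr1:72711225-72711279 (plus, Rpl37a). A match is a run of letters near an annotated start, and the annotated start can lie some bases from the one used in these cells.

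Ribosomal protein genes took 2.57% of all reads in genes. Small subunit genes gave 29670 reads, large subunit genes 23991 and stalk genes 3529. The 12 most-read members held 37.6% of the family's reads, and Rps21, Rps20, Rplp1, Rps12 and Rps9 were among them. Of these 12, 9 encode small subunit proteins, 2 large subunit proteins and 1 a stalk protein. The order is one of reads from 3′ ends, which are not scaled by transcript length.

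Rps21, a small subunit protein, was the most-read member with 3334 reads over all libraries, an order set by the thyroid libraries. In salivary gland Rplp1 had more reads, and in thyroid GFP+ cells at 9 months Rps20 did (583 against 578). In thyroid GFP− cells its level ran from 0 over a median of 1577 to 2683 CPM, and in GFP+ cells from 0 over 1698 to 1889 CPM. In salivary GFP− cells it read 261, 610 and 583 CPM, and in salivary GFP+ cells 2014 (2 reads), 84.8 (1 read) and 215 CPM. The thyroid fractions overlapped over nearly their whole range, and the salivary ones overlapped only through the 993-read library.

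Rps20, also of the small subunit, followed with 2448 reads. Its thyroid levels ran from 510 over 966 to 1591 CPM in GFP− cells and from 0 over 1135 to 2196 CPM in GFP+ cells. In salivary gland it read 444, 304.8 and 461 CPM in GFP− cells and 0, 84.8 and 114 CPM in GFP+ cells. All 3 salivary GFP+ libraries were below all 3 GFP− libraries. The 0 was in the library of 993 reads, where the limit of 3 reads was 3021 CPM, so it does not show a lower level. The 84.8 CPM was 1 read.

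The 3 stalk genes differed in level. Rplp1, one of the acidic proteins that contact elongation factors, gave 2174 reads, and its thyroid levels ran from 170 over 807 to 1238 CPM in GFP− cells and from 0 over 1206 to 1828 CPM in GFP+ cells. Its partner Rplp2 ran from 67.0 over 325 to 413 CPM and from 0 over 343 to 458 CPM. Rplp0, which anchors both to the ribosome, ran from 0 over 273 to 1238 CPM and from 0 over 332 to 722 CPM. For each of the 3, the ranges of the thyroid fractions overlapped.

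Paralogues were rarely read. All 14 together gave 899 reads, of which Rpl36al, a near copy of the large subunit gene Rpl36a, gave 496, Rps27l, a relative of Rps27, gave 154, and Rpl22l1, a relative of Rpl22, gave 77. In thyroid, Rpl36al ran from 0 over 192 to 404 CPM in GFP− cells and from 0 over 264 to 640 CPM in GFP+ cells. Rps27l ran from 0 over 53.6 to 177 CPM and from 0 over 53.7 to 170 CPM, and Rpl22l1 from 0 over 19.1 to 60.3 CPM and from 0 over 41.1 to 106 CPM. Each of the 3 overlapped between the fractions. The remaining paralogues were Rps4l with 76 reads, Rpl7l1 with 41, Rpl37rt with 35, Rps27rt with 14, Rpl39l and Rps3a2 with 2 each, Rpl6l and Rps3a3 with 1 each, and Rpl3l, Rpl10l and Rps12l1 with 0. Rpl3l and Rpl10l are known from striated muscle and testis. The 4 members with 0 reads were these 3 paralogues and Rpl24, a core gene of the large subunit.

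The counts of single members depend on how unique their 3′ ends are, since these genes have many processed copies in the genome. Of the words of 50 bases in the last 300 bases of the 77 subunit and stalk genes, a median of 49.9% occurred in no other annotated gene, against a median of 100% for 1799 other tested protein-coding genes. The share was under 50% for 39 of the 77 and for 22 of the 1799. The 39 genes gave a median of 430 reads (0 to 2174) and the other 38 a median of 705 (62 to 3334). Rpl24 had 18.7% and 0 reads, Rps6 had 16.7% and 95 reads, and Rpl36a had 0% and still gave 850 reads, so the share does not order the counts gene by gene. The row for reads without a unique alignment was 0 in every file, and the sources used here do not say how such reads were treated. The 274 rows of -ps pseudogenes gave 914 reads. Levels of members that share their 3′ ends with copies are uncertain for this reason, and differences between groups were not tested against it.

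**Figure D1:**
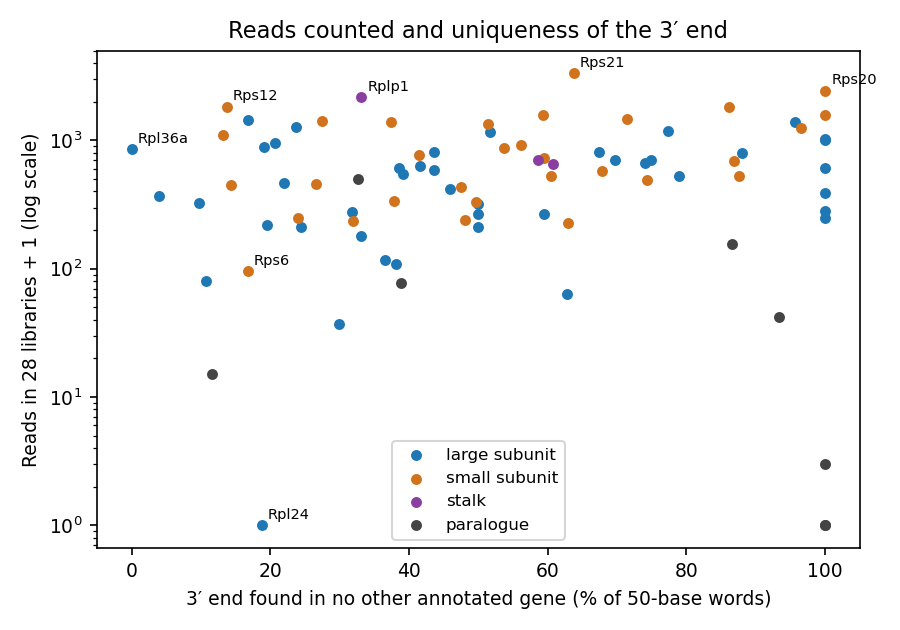
Reads of each ribosomal protein gene summed over 28 libraries (vertical axis, reads + 1, log scale) against the percentage of 50-base words at its 3′ end found in no other annotated gene (horizontal axis), 1 point per gene. Genes under 50% reach up to 2174 reads (Rplp1), and Rpl24 and Rps6 lie low at 18.7% and 16.7%.

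In thyroid, the family's summed level was higher on average in GFP+ than in GFP− cells at each age, and the ranges overlapped at each age. At 3 months the GFP− libraries read 21068, 28323, 19096 and 21996 CPM and the GFP+ libraries 35851, 19335, 33478 and 33391 CPM. The means were 22621 ± 3989 (SD, n = 4) and 30514 ± 7539 (SD, n = 4), a ratio of 1.35. Replicate 2 of GFP+, a library of 5896 reads, lay below 3 of the 4 GFP− libraries, and the other 3 lay above all of them.

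At 6 months the GFP− libraries read 26617, 31992, 24798 and 24197 CPM (mean 26901 ± 3546, SD, n = 4) and the GFP+ libraries 38237, 30534, 27748 and 33531 CPM (mean 32512 ± 4488, SD, n = 4), a ratio of 1.21. At 9 months they read 18015, 31649 and 24331 CPM (mean 24665 ± 6823, SD, n = 3) and 46858, 36368 and 29826 CPM (mean 37684 ± 8592, SD, n = 3), a ratio of 1.53. At both ages the overlap came from the highest GFP− library. Without the 6 shallow libraries the ratios were 1.48, 1.28 and 1.35, and the ranges did not overlap at 3 months (2 GFP+ against 4 GFP− libraries) or 6 months (3 against 3) and overlapped at 9 months (3 against 2).

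Both subunits shared in this difference among the deeper libraries. The large subunit sum was 1.58 times as high in GFP+ cells at 3 months, 1.29 times at 6 months and 1.30 times at 9 months, and the small subunit sum 1.44, 1.26 and 1.38 times. The stalk sum was 1.40, 1.35 and 1.41 times as high. Pooled over libraries, large subunit and stalk reads stood to small subunit reads as 0.922, 0.914 and 0.910 in GFP− cells and as 0.960, 0.951 and 0.868 in GFP+ cells at 3, 6 and 9 months.

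**Figure D2:**
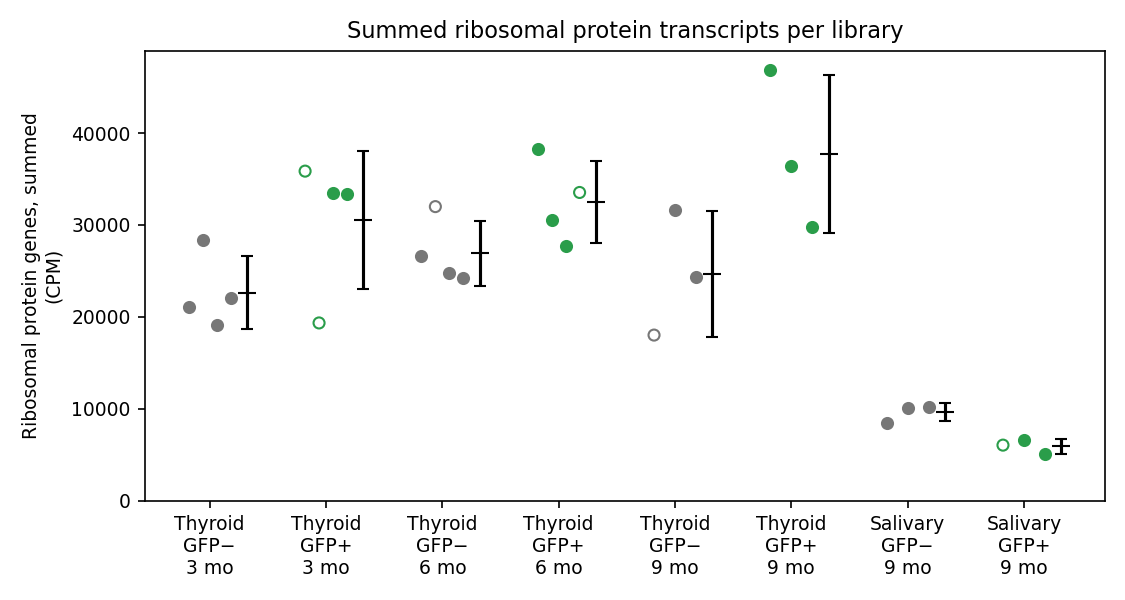
Summed level of the 92 ribosomal protein genes (vertical axis, CPM) in each of 28 libraries by group (horizontal axis). Open circles are libraries under 10000 reads, and bars give the mean ± SD over all libraries of the group. Thyroid GFP+ means of 30514 to 37684 CPM lie above GFP− means of 22621 to 26901 CPM with overlapping libraries, and salivary libraries lie between 5036 and 10241 CPM.

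The denominator bears on these sums. Ribosomal RNA rows took a mean of 38.9% of reads in genes in thyroid GFP− libraries and 33.7% in thyroid GFP+ libraries. With these rows left out the thyroid ratios were 1.28, 1.16 and 1.31. Without mitochondrial rows as well they were 1.22, 1.16 and 1.28, and with the 18 most abundant genes also left out 1.18, 1.13 and 1.25. Cell type markers also moved with the sort. All 9 tested fibroblast markers were higher in GFP+ cells (summed 1972 to 21597 CPM against 1216 to 9055 CPM in GFP− cells), and 3 of 5 pericyte and smooth muscle markers were higher (0 to 2206 against 191 to 826 CPM). At 9 months the pericyte and smooth muscle sum was not higher in GFP+ cells (465 to 570 CPM, median 491, against 538 to 716 CPM, median 680). Lower in GFP+ cells were 7 of 7 endothelial markers (0 to 1921 against 1837 to 8077 CPM), 3 of 4 thyrocyte markers (0 to 4230 against 680 to 9700 CPM), 3 of 3 C cell markers (678 to 21134 against 2039 to 27859 CPM), 2 of 2 parathyroid markers (2418 to 61464 against 5099 to 68516 CPM) and 4 of 4 red cell genes (0 to 1729 against 358 to 14271 CPM). These calls are from the quasi-likelihood test of edgeR, adjusted by Benjamini-Hochberg over all 1900 genes. The C cell sum (Calca, Scg2 and Chga) and the parathyroid sum were highest in the same libraries, replicate 3 at 6 months of each fraction. Whether these sums reflect separate cell types was not tested. In bulk samples, fewer cells of a type and less RNA per cell cannot be told apart. The part of cell composition in the ribosomal protein values was not tested.

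Gene by gene, no ribosomal protein gene passed the test between thyroid GFP+ and GFP− cells. As a mean over the 3 ages, the quasi-likelihood test of edgeR, with p-values adjusted by Benjamini-Hochberg, called 0 of the 74 members tested, against 20.2% of all 1900 genes tested. At an unadjusted p under 0.05 it passed 0 of 74 members and 540 of 1900 genes. DESeq2 called 0 of 74 members against 13.6% of all genes. At an unadjusted p under 0.05 DESeq2 passed 11 of 74 members, and its share of all genes at that cut is not given here. The fitted log2 fold changes of the members lay between -0.39 and 0.71, while those of all genes ran from -6.72 to 5.33. The median was 0.12 for the members, with 52 of 74 above 0, and -0.08 for all genes.

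The width of the intervals sets what this test could have shown. For the mean over ages, the 95% interval lay wholly within 1 log2 unit of 0 for 44 of 74 members and within 2 units for all 74, with a median half-width of 0.74. The 38 large subunit genes had a median of 0.16, the 31 small subunit genes 0.13 and the 3 stalk genes 0.04. With the size factors of DESeq2 in the edgeR fit the medians moved to 0.47 for members and 0.22 for all genes, 19 of 74 members and 593 of 1900 genes had an unadjusted p under 0.05, and 4 members were called higher (Rps4x, Rpl32, Rps9 and Rpl23) against 22.8% of all genes.

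**Figure D3:**
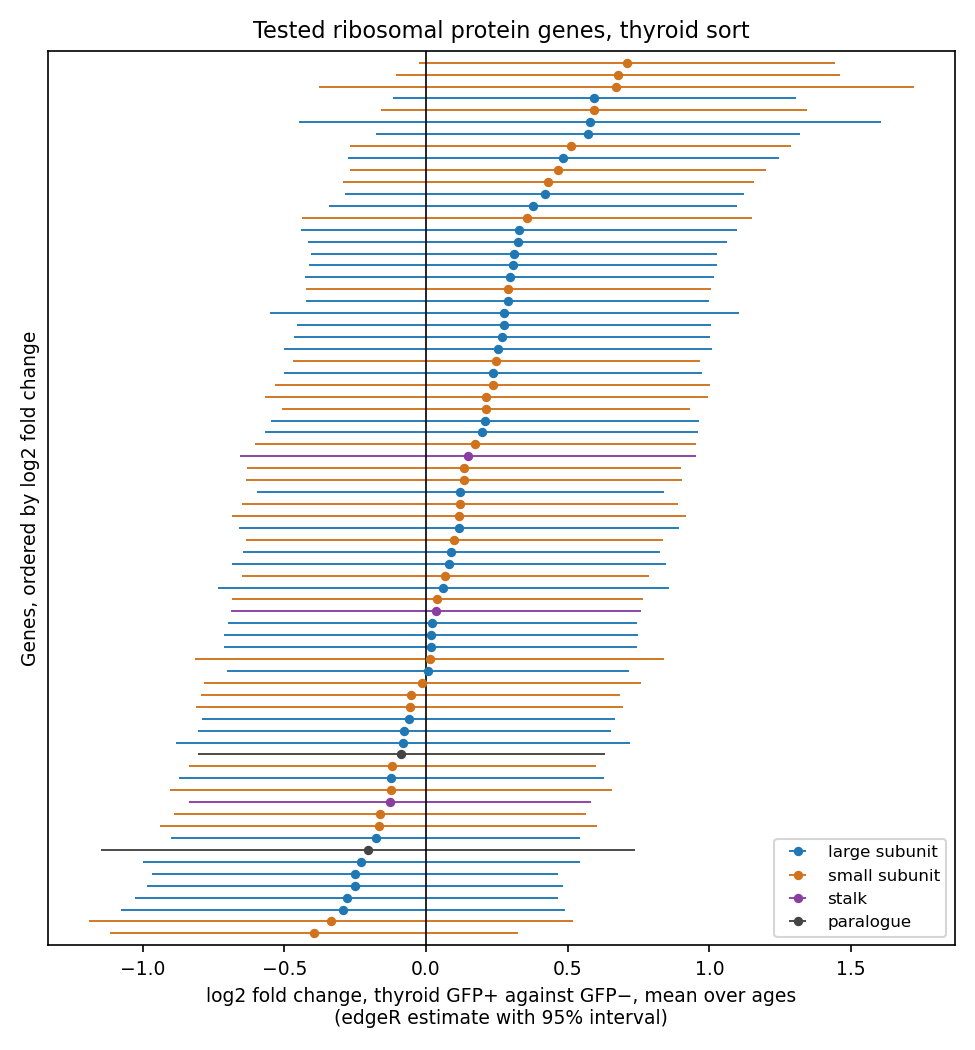
Log2 fold change of each of the 74 tested ribosomal protein genes between thyroid GFP+ and GFP− cells, averaged over 3 ages (horizontal axis), with its 95% interval from edgeR, ordered by size (vertical axis) and coloured by class. Every interval reaches across 0, and the estimates run from -0.39 (Rps25) to 0.71 (Rps4x).

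The members with the smallest p in this comparison were Rps4x, Rpsa and Rpl32. Rps4x, the X-linked form of a small subunit protein, ran from 0 over 113 to 235 CPM in GFP− libraries and from 0 over 235 to 429 CPM in GFP+ libraries. Its fitted log2 fold change was 0.71 ± 0.37 (SE), with an adjusted p of 0.197 by edgeR's quasi-likelihood test. The GFP+ median was equal to the highest GFP− library to 3 digits, and the lowest libraries of both fractions were at 0.

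Rpsa, a small subunit protein also known as a laminin receptor, ran from 0 over 46.1 to 143 CPM in GFP− libraries and from 0 over 108 to 270 CPM in GFP+ libraries, with a log2 fold change of 0.68 ± 0.40 (SE) and an adjusted p of 0.269 in edgeR. The ranges overlapped. Rpl32, of the large subunit, ran from 35.8 over 234 to 413 CPM and from 0 over 373 to 645 CPM, with 0.59 ± 0.36 (SE) and an adjusted p of 0.294 in edgeR. Without the 6 shallow libraries Rpl32 was the only member called (0.77, edgeR adjusted p = 0.0288, with 0.0217 to 0.898 over all alternatives), and 5 of 74 members had an unadjusted p under 0.05. The share of all genes called without those libraries is not given here. Rpl32 was at 0 in 3 GFP+ libraries, and these were all among the shallow ones.

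Rps21, the most-read member, had one of the lowest fold changes, -0.33 ± 0.44 (SE), with an adjusted p of 0.713 in edgeR. It held 6.84%, 6.89% and 6.06% of the family's reads in GFP− cells at 3, 6 and 9 months and 5.24%, 5.11% and 4.90% in GFP+ cells. The order of the 77 subunit and stalk genes was otherwise much the same in both fractions: Spearman's rho across these genes was 0.980 for their pooled CPM, a description over genes that share libraries and are not independent. Pooled CPM was higher in GFP+ cells for 73 of the 77 and lower for 3, and 1 gene differed by more than 2-fold. These values share a denominator with ribosomal RNA rows, which took a mean of 38.9% of reads in GFP− and 33.7% in GFP+ libraries. The share of all genes that were higher is not given here, so the 73 cannot be read as particular to the family. The scaled fold changes above were less uniform in sign.

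**Figure D4:**
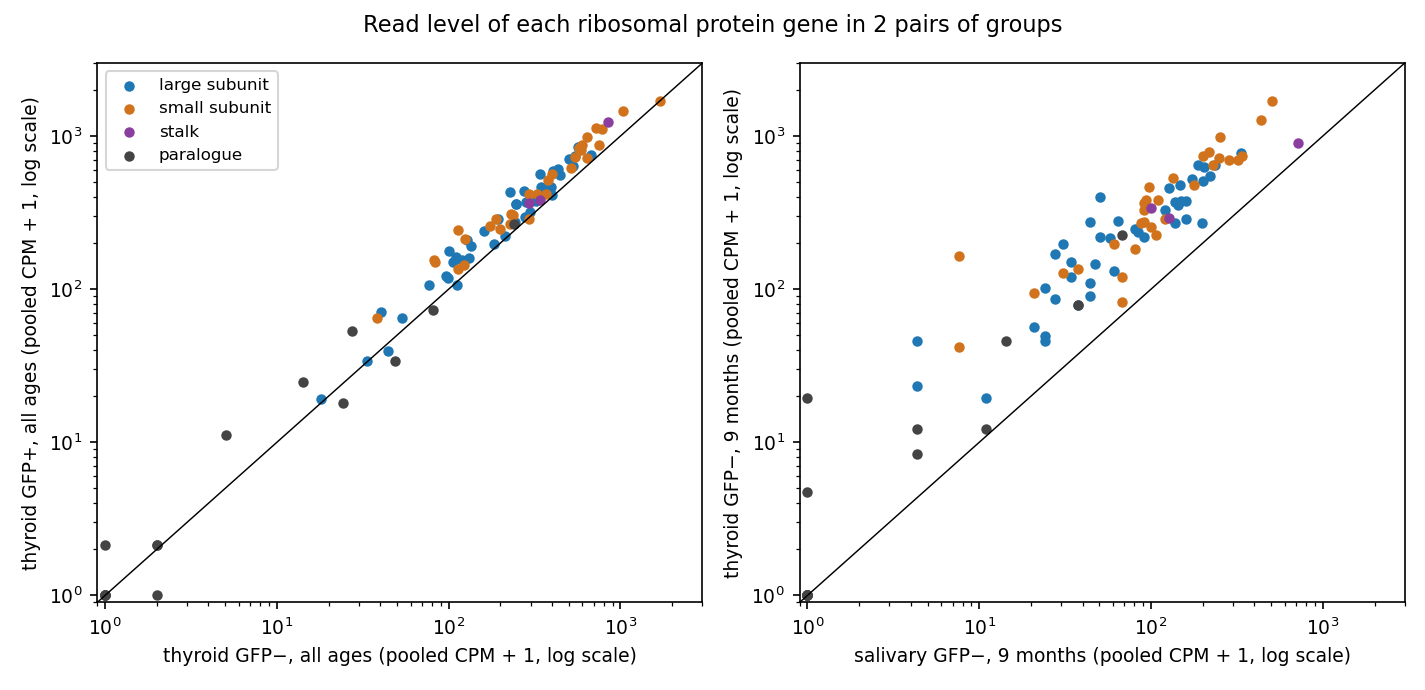
Pooled level of each ribosomal protein gene (CPM + 1, log scales), thyroid GFP+ against GFP− over all ages (left) and thyroid GFP− against salivary GFP− at 9 months (right), 1 point per gene, with the line of equal levels. Points follow the line closely on the left, and on the right all subunit and stalk genes with reads lie above it.

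At single ages edgeR called 0 members as well, with wider intervals and medians that differed between ages. At 3 months edgeR called 0 of 74 members (0 at an unadjusted p under 0.05) against 9.74% of all genes, with medians of -0.09 for members and -0.26 for all genes. DESeq2 called 1 member, Rps7, against 6.47%. Rps7 read 85.8, 122, 35.8 and 89.7 CPM in GFP− cells and 0, 1526, 107 and 154 CPM in GFP+ cells. The 1526 CPM was 9 reads in the shallow library of 5896 reads. The 3 smallest p-values belonged to Rps4x (1.11 ± 0.65 SE), Rps7 (1.08 ± 0.69) and Rpl9 (-1.01 ± 0.67), with edgeR adjusted p of 0.333, 0.382 and 0.402. With DESeq2's size factors the member median turned to 0.65, beside 0.41 for all genes, so the direction at 3 months depended on the scaling.

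Rpl9, a large subunit protein, read 118, 330, 179 and 192 CPM in GFP− cells at 3 months and 0, 0, 0 and 217 CPM in GFP+ cells. The 3 GFP+ libraries at 0 had 1562, 5896 and 18639 reads, and replicate 4 had 174957. Without replicate 4 Rpl9 was called lower in edgeR (adjusted p = 0.0247, with up to 0.827 over the other alternatives), a call made against libraries that were all at 0. The limit of 3 reads in those libraries was 1921, 509 and 161 CPM, so a level like that of the GFP− libraries was not detectable in the first 2.

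At 6 months edgeR called 0 of 74 members (0 at an unadjusted p under 0.05) against 7.11% of all genes, and DESeq2 called 0 against 2.26%. The medians were 0.07 for members and -0.08 for all genes. At 9 months edgeR called 0 of 74 (0 at an unadjusted p under 0.05) against 1.89%, and DESeq2 0 against 0.684%. Here 67 of 74 members were above 0, with a median of 0.46 beside 0.11 for all genes. None of the 74 intervals at 6 or 9 months lay within 1 log2 unit of 0, and the median half-widths were 1.22 and 1.34.

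The smallest p-values at 6 months were those of Rpsa, Rpl15 and Rpl27a, and at 9 months those of Rps15, Rps9 and Rpl28. Rps9, which contributes to decoding accuracy on the small subunit, read 170, 852 and 661 CPM in GFP− cells at 9 months and 1674, 1339 and 1047 CPM in GFP+ cells. All 3 GFP+ libraries were above all 3 GFP− libraries, and the gene did not pass the test. The 170 CPM was 1 read in a library of 5884 reads, where the limit of 3 reads was 510 CPM. The share of all genes without overlap is not given here.

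The sort did not differ detectably with age. EdgeR's test of the interaction called 0 of 74 members (0 at an unadjusted p under 0.05) against 0.158% of all genes, and DESeq2 called 0 against 0.0%. The smallest p was that of Rps27l (unadjusted p = 0.202 in edgeR). Rps27l, a relative of Rps27 known as a p53 target, read 53.6, 177, 0 and 141 CPM in GFP− cells at 3 months and 0, 170, 53.7 and 51.4 CPM in GFP+ cells. At 6 months it read 67.0, 0, 38.3 and 25.99 CPM and 129, 39.3, 87.0 and 0 CPM. The fractions overlapped at both ages, and the 170 CPM was 1 read in a shallow library.

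Age within a fraction gave no call either. In GFP+ cells edgeR called 0 of 74 members (0 at an unadjusted p under 0.05) against 1.58% of all genes, and DESeq2 called 0 against 0.105%. In GFP− cells edgeR called 0 of 74 (0 at an unadjusted p under 0.05) against 1.53%, and DESeq2 0 against 0.105%. Between 3 and 9 months the member median was 0.58 in GFP+ cells, beside 0.30 for all genes, and 0.06 in GFP− cells, beside -0.06. In GFP+ cells it was 0.34 without the shallow libraries, beside 0.13 for all genes.

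Rpl18, of the large subunit, had the smallest p for age in both fractions, with log2 fold changes from 3 to 9 months of 1.67 in GFP+ cells (edgeR adjusted p = 0.844) and 1.23 in GFP− cells (edgeR adjusted p = 0.495). In GFP− cells it read 85.8, 79.5, 35.8 and 12.8 CPM at 3 months, 168, 206, 90.9 and 191 CPM at 6 months and 340, 128 and 154 CPM at 9 months. In GFP+ cells it read 0, 0, 53.7 and 97.2 CPM at 3 months, 141, 210, 153 and 0 CPM at 6 months and 338, 164 and 186 CPM at 9 months. In GFP+ cells the 2 libraries at 0 at 3 months have limits of 1921 and 509 CPM, above each value at 9 months, so they do not show a lower level. In GFP− cells the 340 CPM at 9 months was 2 reads of 5884. This was a description of an uncalled gene, and the age groups also differ in depth.

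In salivary gland the family's share of reads was lower in GFP+ than in GFP− cells. The GFP− libraries read 8500, 10112 and 10241 CPM (mean 9618 ± 970, SD, n = 3) and the GFP+ libraries 6042, 6613 and 5036 CPM (mean 5897 ± 798, SD, n = 3), a ratio of 0.613 with no overlap. The GFP+ values rest on 6, 78 and 399 reads. The 95% interval for counting error (Wilson method) ran from 2772 to 13120 CPM for the library with 993 reads. The ratio was 0.606 without that library.

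This direction depended on the rows counted. Ribosomal RNA rows took 52.2 ± 11.6% of reads in salivary GFP− and 58.7 ± 5.2% in salivary GFP+ libraries, and mitochondrial messenger RNA rows took 10.1 ± 4.9% and 19.7 ± 1.4% (SD, n = 3 each). Without ribosomal RNA rows the ratio was 0.701 and the ranges overlapped. Without the mitochondrial rows as well it was 1.08, again with overlap. The GFP+ libraries then read 22989, 36620 and 24313 CPM and the GFP− libraries 28371, 22068 and 27505 CPM. Only replicate 2 of GFP+, with 78 reads of the family, lay above all GFP− libraries. With the 18 most abundant genes also left out the ratio was 0.687, without overlap (25641 to 48811 against 50288 to 63968 CPM).

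In the edgeR test of the salivary sort 0 of 65 members were called, against 0.0% of all 974 genes, and DESeq2 called 0 against 0.0%. At an unadjusted p under 0.05, edgeR passed 11 of 65 members and 96 of 974 genes, and DESeq2 9 of 65. The share of all genes at that cut in DESeq2 is not given here. The member median was -1.14 and that of all genes -0.89. The 27 small subunit genes had a median of -1.61 and the 34 large subunit genes -1.0. Only 2 of the 65 intervals lay within 2 log2 units of 0, and the median half-width was 1.99.

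Rps23, a small subunit protein at the decoding site, had the smallest p (edgeR adjusted p = 0.342). It read 104, 388 and 42.4 CPM in GFP− cells and 0, 84.8 and 0 CPM in GFP+ cells, the 84.8 CPM being 1 read. The ranges overlapped. Rplp2 read 183, 55.4 and 74.2 CPM and 0, 0 and 12.6 CPM, the last also being 1 read, and here the ranges did not overlap (edgeR adjusted p = 0.416). Rps27 read 157, 139 and 84.8 CPM and 0, 0 and 25.2 CPM, again without overlap (edgeR adjusted p = 0.429). The limit of 3 reads was 3021 and 254 CPM in the first 2 salivary GFP+ libraries, above each GFP− value of Rplp2 and Rps27. The values of 0 there do not show a lower level, and these non-overlaps rest on the third library.

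In salivary GFP+ cells the subunits differed in their reads. Pooled over libraries, large subunit and stalk genes gave 285 reads and small subunit genes 190, a ratio of 1.5, against 1493 and 1412 reads (1.06) in salivary GFP− cells and 0.868 to 0.960 in the 6 thyroid groups. Among libraries of at least 10000 reads, the large subunit sum was 0.781 times and the small subunit sum 0.480 times that of GFP− cells, and only the large subunit ranges overlapped. The stalk sum, counted with the large subunit above, was 0.543 times that of GFP− cells, nearer to the small subunit. In the salivary GFP+ library of 993 reads the small subunit sum was the higher one (4028 CPM against 2014 CPM for the large subunit and 0 for the stalk). This difference between subunits was noticed in the values and was not tested.

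**Figure D5:**
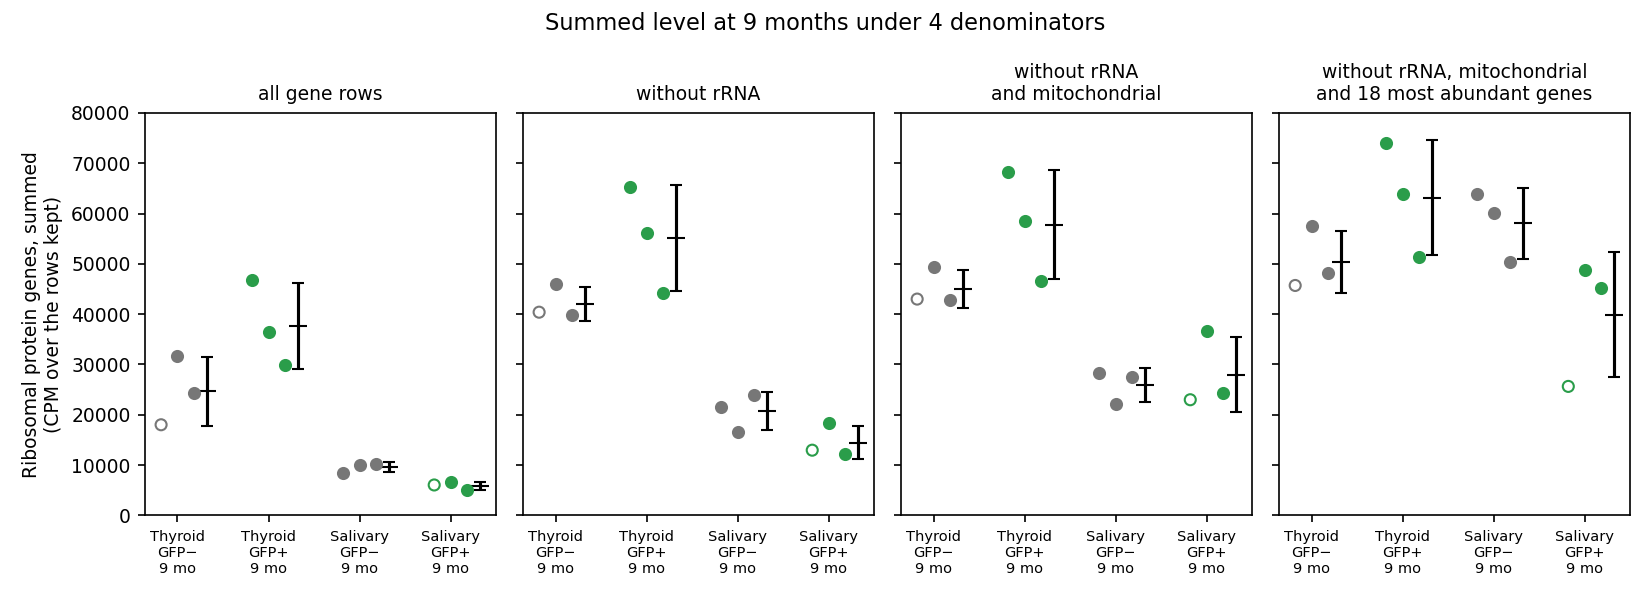
Summed level of the ribosomal protein genes at 9 months (vertical axis, CPM over the rows kept) in the 4 groups (horizontal axis), with 4 choices of the rows in the denominator. Open circles are libraries under 10000 reads and bars give the mean ± SD (n = 3). The thyroid to salivary ratio in GFP+ cells falls from 6.39 to 1.58 from the left panel to the right one, and in GFP− cells from 2.56 to 0.868.

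Between the glands at 9 months, the family took a larger share of all reads in thyroid. In GFP+ cells the thyroid mean was 6.39 times and in GFP− cells 2.56 times the salivary mean, without overlap of libraries in either fraction. Without ribosomal RNA rows the ratios were 3.81 and 2.04, without mitochondrial rows as well 2.07 and 1.73, and without the 18 most abundant genes 1.58 and 0.868. Secretory genes such as Mucl2, Smgc, Scgb1b27 and Scgb2b27 are among those 18. Whether the glands differ in ribosomal protein transcripts therefore depended on the rows set against them, and in GFP− cells the direction did too.

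The gene-wise tests depended on scaling in the same way. In GFP+ cells edgeR called 0 of 65 members against 14.4% of all genes, with medians of 1.20 for members and 1.15 for all genes. At an unadjusted p under 0.05 it passed 10 of 65 members, and the share of all genes at that cut is not given here. With DESeq2's size factors in the same fit 60 of 65 members were called higher in thyroid against 72.7% of all genes called, and the medians were 2.83 and 2.81. DESeq2 itself called 53 of 65 against 57.7%. Relative to the median of all genes the members thus moved by 0.06 and 0.03 in the 2 edgeR fits.

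In GFP− cells edgeR called 0 of 65 members against 14.2% of all genes, and the member median was -0.34 beside 0.17 for all genes. At an unadjusted p under 0.05 it passed 1 of 65 members, and the share of all genes at that cut is not given here. With DESeq2's size factors the median was 1.19 beside 1.60, 14 members were called higher and 51.4% of all genes were called. DESeq2 itself called 7 of 65 against 37.3%. Under each scaling the members lay below the median of all genes in GFP− cells, by 0.52 and 0.41 in the 2 edgeR fits.

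Rps3a1, a small subunit protein, had the smallest p between the glands in GFP− cells, with a log2 fold change of 2.80 ± 1.06 (SE) and an adjusted p of 0.0592 in edgeR. It read 170, 143 and 184 CPM in thyroid and 0, 0 and 10.6 CPM in salivary gland, without overlap. Pooled over libraries these were 44 reads of 268697 and 2 reads of 301336, a ratio of 24.7 with an exact 95% interval for counting error of 6.44 to 210. In GFP+ cells it read 61.4, 182 and 128 CPM in thyroid and 0 reads were seen in salivary gland. There the limit of 3 reads was 3021, 254 and 37.9 CPM. It was called higher in thyroid GFP− cells in edgeR without replicate 1 of thyroid GFP− (2.94) and without ribosomal RNA rows (2.93, adjusted p = 0.0290), and its adjusted p ran from 0.00032 to 0.441 over all alternatives.

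In GFP+ cells Rplp2, a stalk protein, read 445, 452 and 337 CPM in thyroid and 0, 0 and 12.6 CPM in salivary gland. The 2 glands did not overlap, but the first salivary library had a limit of 3 reads at 3021 CPM, above each thyroid value. Its log2 fold change was 3.31 ± 1.36 (SE), with an adjusted p of 0.0789 in edgeR. Over all alternatives its adjusted p ran from 0.000147 to 0.248, and it was called higher with DESeq2 or its size factors, with all 28 libraries in the fit, without ribosomal RNA rows and with only the groups compared.

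Rplp1 stood out from its family in salivary gland by share. It held 7.29% of the family's reads in salivary GFP− and 7.66% in salivary GFP+ cells pooled, and 3.24% to 3.92% in the 6 thyroid groups. By library it held 3.38%, 6.85% and 8.70% in salivary GFP− cells and 0%, 5.13% and 8.27% in salivary GFP+ cells. No thyroid library exceeded 4.21%, and 2 of the 6 salivary libraries lay under that value. Its log2 fold change between the glands in GFP− cells was -1.5 ± 0.92 (SE), with an adjusted p of 0.319 in edgeR, and this share was singled out after its values were seen.

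The sort was also compared between the glands. EdgeR's interaction test called 0 of 65 members against 0.0% of all genes, and DESeq2 called 0 against 0.0%. At an unadjusted p under 0.05, edgeR passed 12 of 65 members and 86 of 974 genes, and DESeq2 13 members and 62 genes. The member median of the difference was 1.58 and that of all genes 0.95. The smallest p-values were those of Rps23, Rpl28 and Rps15, with edgeR adjusted p of 0.412, 0.494 and 0.525. Rpl28, of the large subunit, gave 0 reads in all 3 salivary GFP+ libraries and 4, 0 and 9 reads in the salivary GFP− ones, so its fitted change has no bound. Rps15, of the small subunit, read 65.3, 139 and 53.0 CPM in salivary GFP− and 0, 0 and 12.6 CPM in salivary GFP+ cells, without overlap. The limit of 3 reads in the first 2 salivary GFP+ libraries was 3021 and 254 CPM, so those values of 0 do not show a lower level.

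Genes that work beside the ribosomal proteins were described in the same way. Of 24 translation factors tested in thyroid, 0 were called between GFP+ and GFP− cells in edgeR (1 at an unadjusted p under 0.05), with a median of 0.11. Eef1a1, which delivers aminoacyl-tRNA, had -0.10 ± 0.38 (SE) and Eef2, which moves the ribosome along, -0.19 ± 0.39. Of 17 other genes of the same pyrimidine-tract class, 0 were called (1 at an unadjusted p under 0.05), with a median of 0.12. This list shares genes with the translation factors, Eef2 among them, so the medians of the lists are not independent. Rack1, a small subunit scaffold, had 0.43 ± 0.39 (SE).

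Of 8 tested ribosome assembly and nucleolar genes 1 was called, beside 20.2% of all genes. It was Gnl3, which encodes nucleostemin. It was higher in GFP+ cells by 1.23 ± 0.43 (SE) with an adjusted p of 0.0234 in edgeR's quasi-likelihood test. Of the mitochondrial ribosomal proteins only Mrpl33 had enough reads to be tested, with -0.51 ± 0.41 (SE) and an adjusted p of 0.479 in edgeR. In the salivary sort edgeR called 0 of 14 translation factors, beside 0.0% of all genes. Their median was -1.56, beside -1.14 for the ribosomal protein genes and -0.89 for all genes. At an unadjusted p under 0.05 edgeR passed 6 of 14, and the count over all genes at that cut stands with the salivary sort above. These lists were read only beside the members, and their difference from them was not tested.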

How the data were processed

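Gene counts were used as the authors deposited them, 1 table of whole-number counts per library. Libraries were made from column-purified, DNase-treated RNA with a 3′ messenger RNA kit, per the labels' protocols. Per the submitters' processing notes, bcl2fastq was used and the build was mm9, with no versions, and the aligner, the counter and its strand setting are not given in the sources used here. A table has 47643 rows for genes, and its 5 summary rows were left out of totals and tests. Gene identifiers were matched to GENCODE vM21 names (47224 matched, 419 did not). CPM is over gene rows. Intervals and the limit of 3 reads cover counting error only.

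Groups were compared in edgeR 4.0.16 under R 4.3.3 after TMM scaling and filterByExpr (at least 10 counts, total 15). The fits were robust and of the quasi-likelihood kind, with p-values adjusted by Benjamini-Hochberg over all genes tested and called at 0.05. All 22 thyroid libraries entered 1 fit (1900 genes) and the 12 libraries at 9 months another (974 genes). The TMM factors spread widely, from 0.574 to 10.7 in the thyroid fit and from 0.232 to 7.11 in the other. The edgeR fold changes and calls rest on this scaling. Alternatives were DESeq2 1.42.0, its size factors, no filter, at least 20 counts in 50% of libraries, a fit of all 28 libraries, fits of the compared groups alone, a replicate block, no ribosomal RNA rows, no libraries under 10000 reads, and each library left out. The denominator without abundant rows and a block on the replicate number alone were added after the data were seen. Fits were tested on simulated counts. Members, lists and comparisons were chosen with earlier results of these data known. The rule for named members took the 12 most-read, for each comparison up to 8 called members in each direction or the 3 with the smallest p, the stalk genes, the paralogues, members with 0 reads, and up to 4 called (else the 2 most-read) genes of each comparator list. The share of Rplp1 and the balance of subunits were chosen after their values were seen. Some members that this rule took are not reported here.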

Additional observations from a re-analysis of the deposited data

Results flagged for a closer look

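In groups of 4 libraries, a library was singled out where the gap between it and its nearest neighbour, as a share of the group's range, exceeded Dixon's 95% limit, which chance passes in about 5% of groups. Of 68 groups looked at, 7 passed, all 7 through libraries under 10000 reads. In thyroid GFP+ cells at 3 months the summed level of the ribosomal protein genes was 19335 CPM in replicate 2, against 33391 to 35851 CPM in the others, and that of the small subunit genes 8989 CPM, against a group median of 16792 CPM. In thyroid GFP− cells at 6 months replicate 2 was the highest for the stalk genes (2890 CPM, the group's lowest being 1325 CPM) and for Rps24 (1032 CPM, lowest 570 CPM), and it was the lowest for Rps14 (0 CPM, highest 771 CPM). In thyroid GFP+ cells at 6 months Rpl37a was at 0 CPM in replicate 4, which held 507 reads, against a highest value of 660 CPM.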

How the results depend on the processing

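Counts of called members were 0 in each comparison and kept that value under most alternatives, and 19 alternatives raised them. In the thyroid sort as a mean over ages, 4 members were called with DESeq2's size factors in edgeR (22.8% of all genes) and 1 (Rpl32) without libraries under 10000 reads. Leaving out each library gave 0 to 1, the 1 being Rpl9 without replicate 4 of thyroid GFP+ at 3 months. At 3 months 1 was called with the size factors (Rps4x) and 1 with DESeq2 (Rps7, beside 6.47% of all genes), and 0 to 1 (Rpl9) with a library left out. Between the glands in GFP+ cells, 60 were called with the size factors (72.7% of all genes) and 53 with DESeq2 (57.7%). There were 8 with all 28 libraries in the fit and 8 with only the groups compared (7 higher in thyroid and Rpl18 lower). Without ribosomal RNA rows 6 were called, and with at least 20 counts 2. In GFP− cells, 14 were called with the size factors (51.4% of all genes) and 7 with DESeq2 (37.3%). The stricter count filter called 1 (Rplp1, lower). Without ribosomal RNA rows, without shallow libraries and with only the groups compared, 1 each was called (Rps3a1, higher). With a library left out 0 to 1 were called, the 1 coming without replicate 1 of thyroid GFP− at 9 months. Where no share of all genes stands beside a count, it is not given here, and that count cannot be read as particular to the family. On the log2 scale, the summed salivary sort moved to 0.11 without ribosomal RNA and mitochondrial rows, with overlapping libraries. The summed difference between glands in GFP+ cells moved to 1.93 without ribosomal RNA rows, to 1.05 without mitochondrial rows as well and to 0.66 without the most abundant genes (an alternative chosen after seeing the data), and in GFP− cells to 0.79 and -0.20 under the last 2 of these. The cause of these changes was not tested. Among named members no called value changed sign.

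Replicate numbers are shared between fractions in the labels. Residuals of same-numbered libraries correlated above 0.1 in 3 of 11 thyroid pairs and 1 of 3 salivary pairs, so the numbers were not taken to pair the libraries. The highest correlation was 0.377, for replicate 3 of thyroid at 6 months. Some pairs hold a library under 10000 reads, so low correlations do not show that the libraries are unpaired. With the replicate block 0 members were called in each sort comparison, and the member median was 0.04 for the mean over ages, -0.17, -0.03 and 0.57 at 3, 6 and 9 months and -1.34 in salivary gland. The tests of the sort by age and by gland also called 0 with the block. The block within age and gland cannot be fitted for ages or glands within a fraction. With the replicate number alone as a block (added after seeing the data), 0 members were called there, with medians of 0.66 and 0.07 for age in GFP+ and GFP− cells and 1.25 and -0.35 between glands. Depth limits the values in salivary cells (483 reads of the family in GFP+ and 2948 in GFP−) and in thyroid GFP+ cells at 3 months, where replicate 4 gave 5842 reads of the family and the other libraries 56, 114 and 624.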
